A study of Homo sapiens with 30 samples.

Results

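The amino acid transporter genes of solute carrier families SLC1, SLC3, SLC7, SLC36, SLC38 and SLC43 were described in MDA-MB-231 cells, an established human triple-negative breast cancer line. They were every gene whose symbol names one of these families followed by a member number, which gave 40 of the 26475 genes listed in each of 2 expression tables. A member was described in a table where its mean reached 1 CPM, a read count scaled to library size, in at least 1 group. That left 24 members in the first table and 25 in the second, 26 in all and 23 in both, and each of them passed the filter on low counts. SLC1A7 reached the level only in the first table, and SLC38A5 and SLC3A1 only in the second. The other 14, SLC1A2, SLC1A6, SLC36A2, SLC36A3, SLC38A3, SLC38A8, SLC38A11, SLC7A3, SLC7A4, SLC7A8, SLC7A9, SLC7A10, SLC7A13 and SLC7A14, stayed below it in every group. Just outside the level stood SLC38A5 and SLC3A1 in the first table, with a highest group mean of 0.299 and 0.324 CPM, and SLC1A7 in the second, with 0.516 CPM. Just inside were SLC7A7 and SLC1A1 with 2.31 and 2.44 CPM in the first table, and SLC3A1 and SLC1A1 with 1.18 and 1.98 CPM in the second. A few members reached 1 CPM in some groups only, SLC1A7 and SLC7A7 in the first table and SLC1A1, SLC38A5, SLC3A1 and SLC7A7 in the second. These had to differ between groups, so counts over the members describe them and support nothing beyond that.

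RNA came from 30 libraries, 3 for each of 10 groups. The first table holds lineages 22, 35 and 45, each sorted by flow cytometry out of a co-culture of 6 lineages on day 15, and each grown in isolation for about 24 hours. Lineages 03, 10 and 13 and a sample called Pop, all in isolation for 24 hours, make up the second table; what Pop stands for is not given. All 10 groups are labelled wild type, and the medium was RPMI supplemented with dialyzed serum (10%) and glutamine (2 mM). Each lineage is a single derived line, so a difference between lineages is a difference between single lines. Co-culture and isolation also differed in time in culture, in passage every 3 days, in sorting and in the RNA extraction kit, and these cannot be told apart from co-culture itself. The series title names soluble metabolites exchanged between cooperating clones, and the comparisons below follow from the groups: co-culture against isolation within a lineage, lineage against lineage within a condition, and isolated lineage against Pop.

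Amino acids cross the cell membrane through transporters of several kinds. SLC3A2 (CD98) and SLC3A1 are heavy chains that pair with a light chain of the SLC7 family and carry it to the membrane. Of the light chains of SLC3A2, SLC7A5 (LAT1) exchanges large neutral amino acids, mostly inward leucine and its like against outward glutamine, SLC7A6 and SLC7A7 (the y+LAT pair) exchange cationic against neutral amino acids, and SLC7A11 (xCT) takes up cystine in exchange for glutamate. SLC1A5 (ASCT2) exchanges glutamine and other small neutral amino acids, SLC38A1 and SLC38A2 accumulate glutamine and alanine with sodium, and SLC43A1 and SLC43A2 let branched-chain and aromatic amino acids pass down their gradient. Many of these genes are known targets of ATF4, the transcription factor of the amino acid response, and SLC7A11 is also a known target of NRF2, the factor of the antioxidant response.

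Libraries held 29.8 to 38.8 M estimated counts in the first table, and 28.1 to 35.4 M in the second. The isolated libraries of lineage 35 stood apart in the first table: over all genes their mean r was 0.924 with their own co-culture, 0.921 and 0.928 with the co-cultures of lineages 22 and 45, and 0.923 and 0.942 with isolated lineages 22 and 45. The co-culture libraries of lineage 35 correlated best with the co-cultures of lineages 45 (0.984) and 22 (0.978), and more with isolated lineages 45 (0.964) and 22 (0.950) than with their own isolation. Pop replicate 1 differed from the other Pop libraries by a chi-square per gene of 51.5 and 70.6, against 5.01 to 44.6 between other replicates. Every comparison with isolated lineage 35 rests on its libraries. Counts of shared changes and of differing responses are given with and without lineage 35, and calls against Pop that changed without Pop replicate 1 are named. All 6 markers expected to be high in this line (VIM, CD44, EGFR, AXL, CAV1 and LGALS1) exceeded 1 CPM in every group. Summed leukocyte markers (6 genes) reached 1.75 to 2.65 CPM in lineage 35 co-culture, against 0.249 to 0.387 CPM in its isolation, with 3 and 2 of the 6 genes at 0 counts. Endothelial and erythroid markers (6 genes) summed to 6.04 to 6.74 CPM in lineage 35 co-culture, against 0.914 to 1.18 CPM in its isolation, with 1 and 2 of the 6 at 0 counts. Over all other groups the leukocyte sum ran from 0.111 to 4.02 CPM and the endothelial and erythroid sum from 1.14 to 16.1 CPM. Fibroblast markers (5 genes) summed to 7.65 to 22.2 CPM over all groups, and 6 markers expected to be low in this line to 75.1 to 119 CPM. In bulk RNA, fewer cells of a type and less RNA per cell cannot be told apart. The nuclear RNAs MALAT1 and NEAT1 summed to 33.0 to 151, 36.7 to 46.7 and 36.3 to 139 CPM in co-culture of lineages 22, 35 and 45. Isolation of the same lineages held 664 to 802, 361 to 415 and 364 to 389 CPM. Of 8 early response genes, 2, 7 and 5 rose in co-culture of lineages 22, 35 and 45 and 1, 0 and 0 fell. Of all genes, 27.0%, 32.7% and 18.6% rose in these lineages and 30.0%, 32.9% and 23.2% fell. The 8 genes summed to 417 to 540, 389 to 479 and 384 to 543 CPM in co-culture. In isolation they summed to 336 to 372, 223 to 265 and 289 to 315 CPM. The part of these differences in the results on co-culture was not tested.

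Promoter windows of 3 members are shown because their genes took different courses, the heavy chain SLC3A2, its light chain SLC7A5, and SLC7A6, the light chain that fell in every co-culture. Each is a 300-base RefSeq window of GRCh38.p14 across the start that RefSeq annotates, 5′ to 3′ on the gene's strand. Capitals mark matches to 1 of 3 motifs searched on both strands: TGATGNAA, the CCAAT enhancer binding protein-ATF response element that ATF4 is known to bind, TGACNNNGC, the antioxidant response element, and CACGTG, the E-box. The windows lie at chr11:62881449-62881748 on the plus strand for SLC3A2, at chr16:87869458-87869757 on the minus strand for SLC7A5 and at chr16:68264276-68264575 on the plus strand for SLC7A6. The SLC3A2 window lies inside the gene's GENCODE span, which begins further upstream, at 62856102.
SLC3A2: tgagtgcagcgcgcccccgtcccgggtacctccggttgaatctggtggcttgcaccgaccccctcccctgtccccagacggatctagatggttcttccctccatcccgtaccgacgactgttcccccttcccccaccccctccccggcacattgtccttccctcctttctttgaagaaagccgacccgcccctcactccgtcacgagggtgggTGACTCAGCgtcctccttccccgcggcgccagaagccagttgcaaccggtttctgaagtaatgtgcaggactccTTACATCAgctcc
SLC7A5: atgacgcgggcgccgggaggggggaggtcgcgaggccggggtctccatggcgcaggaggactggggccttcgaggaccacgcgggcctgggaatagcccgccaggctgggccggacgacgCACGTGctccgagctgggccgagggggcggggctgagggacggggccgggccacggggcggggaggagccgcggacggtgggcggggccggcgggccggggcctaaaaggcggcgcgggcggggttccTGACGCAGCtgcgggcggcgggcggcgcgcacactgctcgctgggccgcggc
SLC7A6: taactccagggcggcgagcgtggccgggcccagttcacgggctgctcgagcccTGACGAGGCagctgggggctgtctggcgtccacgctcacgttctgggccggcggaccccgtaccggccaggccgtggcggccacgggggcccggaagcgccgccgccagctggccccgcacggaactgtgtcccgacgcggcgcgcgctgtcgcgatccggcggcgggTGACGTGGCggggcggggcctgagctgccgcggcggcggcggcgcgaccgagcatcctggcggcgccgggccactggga

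The SLC3A2 window holds an antioxidant element starting 37 bases before the annotated start (position -37) and an ATF element on the reverse strand at position 38 after it. In SLC7A5 an E-box starts at -130 and an antioxidant element at -2, and SLC7A6 holds antioxidant elements at -197 and -29. Windows were found for 22 of the 26 members, and none of the 3 motifs overlapped another in the windows shown. The ATF element stood in 4 of the 22 (SLC1A3, SLC38A1, SLC3A2 and SLC7A1), where 3.673% of all 27305 promoter windows of this length hold it. The antioxidant element stood in 5 (SLC3A2, SLC7A1, SLC7A5, SLC7A6 and SLC7A7), against 13.558% of all windows. An E-box stood in 5 (SLC1A7, SLC38A5, SLC38A7, SLC43A1 and SLC7A5), against 7.435% of all windows. The windows of SLC1A5 and SLC43A2, which rose in every co-culture, held none of these letters. The SLC43A2 window, at chr17:1604985-1605284 on the minus strand, lies inside the gene's GENCODE span, which begins further upstream, at 1628886. Sequence at that upstream end was not searched. A match is a description of the sequence and says nothing of a factor bound there.

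In co-culture, 3 of the 24 members changed in the same direction in all lineages. SLC1A5 and SLC43A2 rose and SLC7A6 fell in lineages 22, 35 and 45, whereas the heavy chain SLC3A2 passed the test in none of them. In lineage 22, 5 members rose (20.8%) and 11 fell (45.8%), where 27.0% of all 14570 genes rose and 30.0% fell by edgeR's quasi-likelihood test at a Benjamini-Hochberg (BH) adjusted p of 0.05. In lineage 35, 8 members rose and 5 fell, beside 32.7% of all genes that rose and 32.9% that fell. Lineage 45 had 4 members that rose and 6 that fell, beside 18.6% and 23.2% of all genes. Without co-culture replicate 3 or isolation replicate 3 of lineage 22, the members that fell there numbered 7. The median log2 fold change over the 24 members was -0.22, 0.10 and -0.03 in lineages 22, 35 and 45, and over all genes it was -0.04, 0.01 and -0.03. Changes of at least 2-fold were few: SLC1A7 fell in lineage 22 (11.4% of all genes fell as far), SLC1A7 and SLC38A1 rose in lineage 35 (11.5% rose as far), and SLC43A2 rose in lineage 45 (2.98%).

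**Figure D1:**
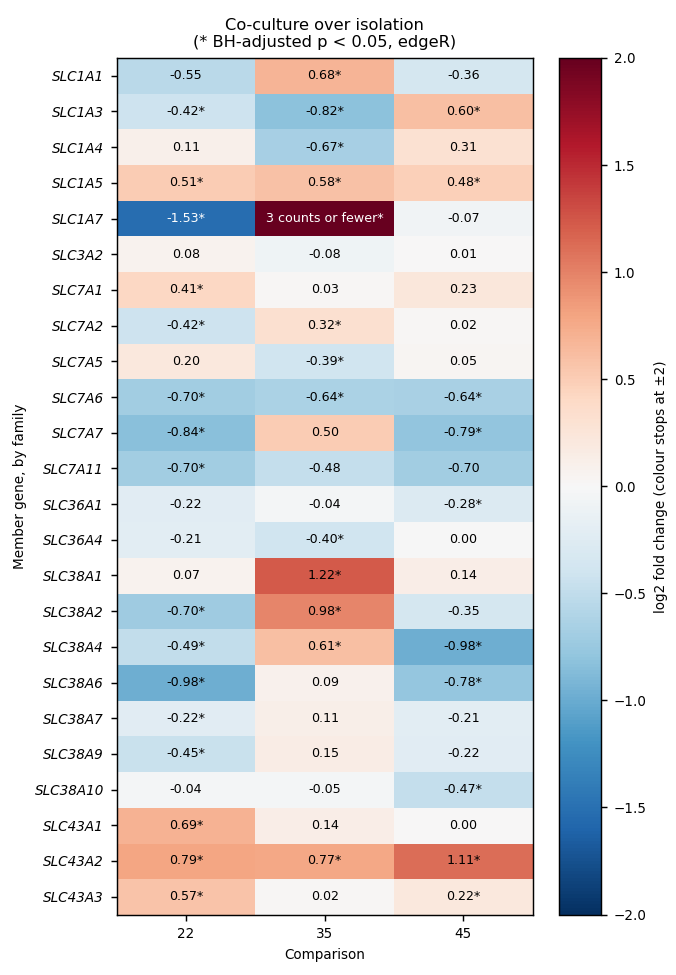
Log2 fold change of co-culture over isolation for the 24 members of the first table, 1 column for each of lineages 22, 35 and 45, with an asterisk where edgeR's BH-adjusted p was under 0.05. SLC1A5 and SLC43A2 are red and SLC7A6 is blue in all 3 columns, and SLC38A2 and SLC38A4 are blue in lineage 22 and red in lineage 35; the cell without a number rests on 3 counts in isolation.

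Over all genes, 7.77% rose in all 3 lineages and 10.6% fell in all 3, beside 2 and 1 of the 24 members. Compared library by library, all 9 co-culture values of SLC1A5, SLC43A2 and SLC7A6 lay on 1 side of all 9 isolation values. Of all genes tested, 5.04% had every co-culture library above every isolation library and 7.32% had every one below. Leaving aside lineage 35, whose isolated libraries stood apart, 3 members rose in both lineages 22 and 45 (SLC1A5, SLC43A2 and SLC43A3; 12.8% of all genes). SLC38A4, SLC38A6, SLC7A6 and SLC7A7 fell in both, 4 members beside 16.4% of all genes. A fit without the lineage 35 libraries added SLC7A11 to those that fell, which otherwise missed the threshold in lineage 45 (adjusted p 0.0648, edgeR).

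SLC1A5, at 19:46774883-46788594 on the minus strand (GRCh38), had 462, 552 and 455 CPM in lineage 22 co-culture, against 361, 348 and 325 CPM in its isolation. In lineage 35 it had 656, 555 and 509 CPM in co-culture and 381, 402 and 367 CPM in isolation. Lineage 45 had 415, 507 and 463 CPM in co-culture and 351, 301 and 343 CPM in isolation. Every co-culture library exceeded every isolation library, and the highest value was that of lineage 35 co-culture replicate 1. The log2 fold change was 0.51 ± 0.10 (SE) in lineage 22, 0.58 ± 0.10 in lineage 35 and 0.48 ± 0.10 in lineage 45, with adjusted p of 0.000274, 4.24e-05 and 0.000883 (edgeR, n = 3 against 3). The 3 responses did not pass the test of a difference between lineages.

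SLC43A2 (17:1569267-1628886, minus strand), a facilitated transporter of branched-chain and aromatic amino acids, had 15.1, 17.0 and 14.7 CPM in lineage 22 co-culture, against 10.3, 7.25 and 9.55 CPM in isolation. Lineage 35 had 13.2, 11.9 and 10.9 CPM in co-culture and 7.68, 6.98 and 6.41 CPM in isolation. Lineage 45 had 12.8, 14.5 and 14.6 CPM in co-culture and 7.79, 5.75 and 5.83 CPM in isolation. The lowest co-culture value, 10.9 CPM in lineage 35, lay just above the highest isolation value, 10.3 CPM in lineage 22. The log2 fold change was 0.79 ± 0.14 in lineage 22, 0.77 ± 0.14 in lineage 35 and 1.11 ± 0.14 in lineage 45 (edgeR adjusted p 7.21e-05, 6.83e-05 and 4.26e-06), a 2.16-fold rise in lineage 45.

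Its relatives followed only in part. SLC43A1, a facilitator of large neutral amino acids, rose in lineage 22 (10.1 ± 1.18 CPM in co-culture and 6.26 ± 0.262 CPM in isolation, SD, n = 3 each; log2 0.69 ± 0.11, edgeR adjusted p 1.69e-05). In lineages 35 and 45 it averaged 9.95 and 10.4 CPM in co-culture and 9.03 and 10.4 CPM in isolation and did not pass the test. The isolated libraries of lineage 22 were thus the low group for this gene, and the response of lineage 22 exceeded that of lineage 45 by 0.69 ± 0.15 (log2, adjusted p 0.00287, edgeR). SLC43A3, known as a nucleobase transporter despite its family, rose in lineage 22 by 0.57 ± 0.08 (adjusted p 4.22e-06) and in lineage 45 by 0.22 ± 0.08 (adjusted p 0.0282). The rise in lineage 45 lost its call without co-culture replicate 2 or 3 or isolation replicate 2 or 3, for example 0.16 with an adjusted p of 0.144 (edgeR) without co-culture replicate 2. AP000781.2 lies over 17106 bases of SLC43A3 on the same strand, and their reads may not be separated.

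**Figure D2:**
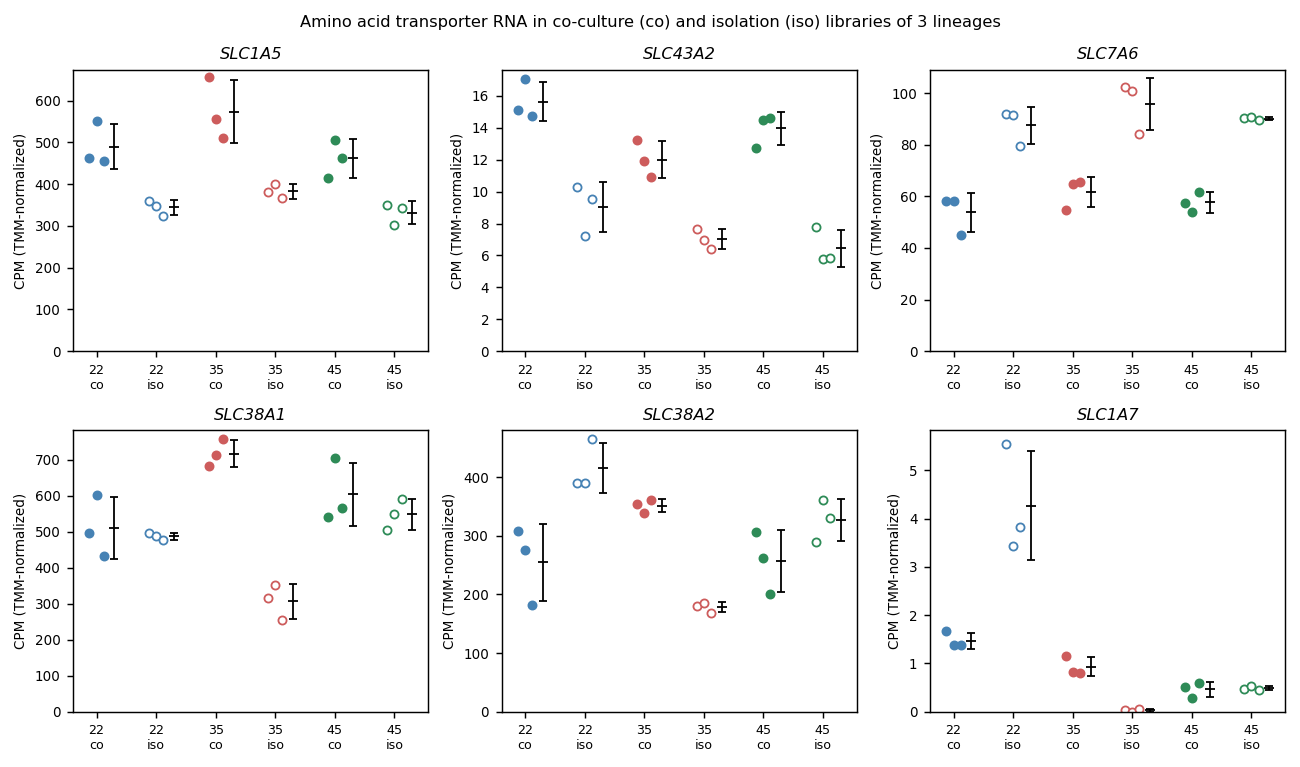
CPM per library of 6 members in co-culture (left of each pair) and isolation (right) of lineages 22, 35 and 45; points are libraries, and black marks give the mean ± SD of 3. SLC1A5 and SLC43A2 are higher and SLC7A6 is lower in every co-culture library than in any isolation library, while SLC38A1 and SLC38A2 stand low in isolated lineage 35.

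The heavy chain SLC3A2 (11:62856102-62888875, plus strand) had 252, 303 and 294 CPM in lineage 22 co-culture, against 274, 282 and 248 CPM in isolation. Lineage 35 had 339, 330.4 and 296 CPM in co-culture and 377, 337 and 309.9 CPM in isolation, and lineage 45 had 237, 313 and 278 CPM in co-culture and 350.3, 228 and 245 CPM in isolation. Co-culture and isolation overlapped in every lineage. The log2 fold changes were 0.08 ± 0.14, -0.08 ± 0.13 and 0.01 ± 0.13 in lineages 22, 35 and 45 (edgeR adjusted p 0.644, 0.595 and 0.975), and a p that misses the threshold does not show that the level was equal.

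Of its light chains, SLC7A6 fell in each lineage. This gene (16:68264516-68301823, plus strand) had 58.2, 58.4 and 45.1 CPM in lineage 22 co-culture and 91.8, 91.7 and 79.3 CPM in isolation. Lineage 35 had 54.8, 64.7 and 65.4 CPM in co-culture and 102, 101 and 84.1 CPM in isolation. Lineage 45 had 57.4, 53.9 and 61.7 CPM in co-culture and 90.2, 90.8 and 89.5 CPM in isolation. The highest co-culture value, 65.4 CPM, lay below the lowest isolation value, 79.3 CPM, and the isolated libraries of lineage 45 were nearly equal. Log2 fold changes were -0.70 ± 0.10, -0.64 ± 0.10 and -0.64 ± 0.10 in lineages 22, 35 and 45 (edgeR adjusted p 1.37e-05, 2.17e-05 and 6.94e-05). SLC7A6OS lies over 17321 bases of SLC7A6 on the opposite strand and rose by 0.43, 0.31 and 0.31 (log2, adjusted p 0.0026, 0.02 and 0.031, edgeR). The kit keeps strand, but the sources used here do not state whether the counting used it, so reads of these overlapping genes may not be separated.

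SLC7A5 did not share that course. It had 655, 777 and 657 CPM in lineage 22 co-culture, against 638, 621 and 556 CPM in isolation, and 475, 682 and 666 CPM in lineage 45 co-culture, against 659, 547 and 559 CPM in isolation. In lineage 35 it had 771, 739 and 738 CPM in co-culture and 994, 1064 and 894 CPM in isolation. The isolated libraries of lineage 35 were the highest of all and did not overlap those of its co-culture. SLC7A5 fell in lineage 35 (log2 -0.39 ± 0.12, edgeR adjusted p 0.00575) and did not pass the test in lineage 22 (0.20 ± 0.12, 0.141) or lineage 45 (0.05 ± 0.12, 0.77). The responses of lineages 22 and 35 differed by 0.60 ± 0.16 (adjusted p 0.005, edgeR), and those of lineages 35 and 45 by -0.44 ± 0.16 (0.0365). The second of these was lost without lineage 35 co-culture replicate 2 or 3 or isolation replicate 1 or 2, or lineage 45 co-culture replicate 2 or 3 or isolation replicate 2 or 3 (adjusted p 0.0645 to 0.106, edgeR).

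The cystine transporter SLC7A11 was lower on average in each co-culture, with wide spread. It had 78.9, 123 and 68.8 CPM in lineage 22 co-culture and 145, 153 and 143 CPM in isolation. Lineage 35 had 109, 154 and 155 CPM in co-culture and 262, 212 and 109 CPM in isolation, and lineage 45 had 92.7, 124 and 87.1 CPM in co-culture and 151, 155 and 186 CPM in isolation. The groups did not overlap in lineages 22 and 45 and did in lineage 35, where isolation replicate 3 was as low as the lowest co-culture library. The log2 fold change was -0.70 ± 0.29 in lineage 22, -0.48 ± 0.28 in lineage 35 and -0.70 ± 0.28 in lineage 45, with adjusted p of 0.0499, 0.15 and 0.0648 (edgeR). The call in lineage 22 sat at the threshold and was lost without co-culture replicate 1 or 3 or any isolation replicate (adjusted p 0.0841 to 0.178). In the fit without lineage 35 it passed in both lineages, at -0.67 and -0.68 (adjusted p 0.00882 and 0.0121, edgeR).

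SLC7A7, the other y+LAT light chain, was near the limit of description. Lineage 22 had 1.92, 1.08 and 0.841 CPM in co-culture and 2.35, 2.21 and 2.38 CPM in isolation, and lineage 45 had 0.679, 0.848 and 0.962 CPM in co-culture and 1.37, 1.51 and 1.43 CPM in isolation. It fell in both (log2 -0.84 ± 0.24 and -0.79 ± 0.26, edgeR adjusted p 0.00553 and 0.0176). Without lineage 45 co-culture replicate 1 or isolation replicate 2 the second of these calls was lost (adjusted p 0.0721 and 0.0529). As lineage 45 stayed below 1 CPM in co-culture and not in isolation, the fall there followed from the rule of description. Lineage 35 had 0.954, 0.601 and 0.806 CPM in co-culture and 0.549, 0.554 and 0.560 CPM in isolation, which did not pass the test (0.50 ± 0.29, 0.133). The cationic transporters SLC7A1 and SLC7A2, which work without a heavy chain, moved in opposite directions in lineage 22, SLC7A1 by 0.41 ± 0.11 (adjusted p 0.00465) and SLC7A2 by -0.42 ± 0.13 (0.00841, edgeR). SLC7A2 rose by 0.32 ± 0.13 in lineage 35 (0.0318) and lost that call without co-culture replicate 2 or 3 or isolation replicate 3, and in lineage 22 it lost its call without co-culture replicate 3 (0.0534).

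In the sodium-coupled SLC38 family, SLC38A2 and SLC38A4 fell in lineage 22 and rose in lineage 35, and SLC38A1 rose in lineage 35 alone of the 3. SLC38A1, a glutamine transporter, had 681, 713 and 756 CPM in lineage 35 co-culture, against 314, 351 and 255 CPM in isolation. The groups were far apart, and the isolated libraries were the low ones, since lineages 22 and 45 had 433 to 602 and 541 to 703 CPM in co-culture and 477 to 496 and 503 to 590.3 CPM in isolation. SLC38A1 rose 2.34-fold in lineage 35 (log2 1.22 ± 0.12, edgeR adjusted p 5.27e-08; 1.11 to 1.33 with any 1 of the 6 libraries left out), and in lineages 22 and 45 its log2 fold changes of 0.07 and 0.14 did not pass the test. SLC38A2, a relative that is known to be induced by amino acid starvation, had 181 to 308 CPM in lineage 22 co-culture, against 391 to 465 CPM in isolation. It had 339 to 361 CPM in lineage 35 co-culture, against 169 to 186 CPM in isolation. It fell in lineage 22 (-0.70 ± 0.16, adjusted p 0.00148), rose in lineage 35 (0.98 ± 0.16, 5.47e-05) and in lineage 45 did not pass the test (-0.35 ± 0.16, 0.094; edgeR). The response of lineage 22 differed from that of lineage 35 by -1.68 ± 0.23 for SLC38A2 (1.12e-05) and by -1.16 ± 0.17 for SLC38A1 (1.56e-05).

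SLC38A4, a system A transporter that also carries cationic amino acids, lies beside SLC38A1 and SLC38A2 on chromosome 12 (at 46764761-46832408, 46183063-46270017 and 46358189-46372867, all on the minus strand). It rose in lineage 35 (10.7 ± 1.32 CPM in co-culture and 7.05 ± 1.21 CPM in isolation, SD, n = 3 each; log2 0.61 ± 0.18, edgeR adjusted p 0.00528). It fell in lineage 22 (7.67 ± 0.631 CPM in co-culture and 10.8 ± 1.25 CPM in isolation; -0.49 ± 0.18, 0.0223) and in lineage 45 (6.37 ± 0.777 CPM in co-culture and 12.5 ± 3.45 CPM in isolation; -0.98 ± 0.18, 0.000218). In lineage 22 the call was lost without co-culture replicate 2 or 3 or isolation replicate 3 (adjusted p 0.0619 to 0.0986, edgeR). The 35 and 45 responses differed by 1.58 ± 0.25 (3.3e-05). SLC38A6, whose substrates are less well known, fell in lineages 22 and 45 (-0.98 ± 0.21 and -0.78 ± 0.21, adjusted p 0.000614 and 0.00609) and did not pass the test in lineage 35 (0.09).

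Transporters known from the lysosome changed by small steps. SLC38A9, the arginine-sensing transporter that signals to mTORC1, and SLC38A7, a lysosomal glutamine exporter, fell in lineage 22 (log2 -0.45 ± 0.16 and -0.22 ± 0.09, edgeR adjusted p 0.0188 and 0.0488). The SLC38A7 call was lost without any 1 of the 6 libraries compared, and the SLC38A9 call without co-culture replicate 3 or isolation replicate 2. SLC36A1, a proton-coupled exporter of small amino acids, fell in lineage 45 (-0.28 ± 0.10, 0.0346), and SLC36A4, of the same family, in lineage 35 (-0.40 ± 0.14, 0.0157). The SLC36A1 call was lost without co-culture replicate 1 or isolation replicate 2 or 3 (edgeR adjusted p up to 0.198), and the SLC36A4 call without co-culture replicate 1 or isolation replicate 2 (up to 0.0715). Apart from these lysosomal transporters, SLC38A10, an SLC38 family member of less certain substrates, fell in lineage 45 (log2 -0.47 ± 0.08, edgeR adjusted p 0.000155). It had 55.8 ± 4.22 CPM in co-culture and 77.3 ± 4.32 CPM in isolation (SD, n = 3 each).

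The glutamate transporters of the SLC1 family changed in different directions in different lineages. SLC1A7 (EAAT5), best known from retina, had 1.66, 1.38 and 1.38 CPM in lineage 22 co-culture, against 5.55, 3.43 and 3.82 CPM in isolation. It fell 2.89-fold there (log2 -1.53 ± 0.25, edgeR adjusted p 3.05e-05), with no overlap. In lineage 35 it had 1.16, 0.831 and 0.806 CPM in co-culture and 0.0323, 0 and 0.0622 CPM in isolation, which is 96 counts in co-culture and 3 in isolation, a ratio of 30.8 with a 95% counting interval of 10.2 to 152. Lineage 45 had 0.509, 0.293 and 0.594 CPM in co-culture and 0.476, 0.540 and 0.451 CPM in isolation and did not pass the test (-0.07). SLC1A3 (EAAT1), a glutamate and aspartate importer, fell in lineage 35 (6.99 ± 0.568 CPM in co-culture and 12.4 ± 1.58 CPM in isolation, SD, n = 3 each; -0.82 ± 0.15, 9.78e-05). It rose in lineage 45 (6.41 ± 0.939 CPM in co-culture and 4.22 ± 0.585 CPM in isolation; 0.60 ± 0.16, 0.00535), and these responses differed by -1.42 ± 0.22 (2.77e-05, edgeR).

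In lineage 22 SLC1A3 fell by a smaller step, with overlap (-0.42 ± 0.15, edgeR adjusted p 0.0259), and the call was lost without co-culture replicate 1 or 2 or isolation replicate 1 or 3, and in the fit without lineage 35 (0.0525). SLC1A4 (ASCT1), an exchanger of alanine, serine and cysteine, fell in lineage 35, with 13.7 to 21.0 CPM in co-culture and 23.8 to 29.8 CPM in isolation (-0.67 ± 0.15, 0.000529). SLC1A1 (EAAT3), a glutamate and cysteine importer, rose in lineage 35 with overlap (1.60 to 2.89 CPM in co-culture and 1.19 to 1.78 CPM in isolation; 0.68 ± 0.23, 0.0141). That call was lost without co-culture replicate 1 (adjusted p 0.0959) or isolation replicate 2 (0.0723, edgeR). In all, 14 of the 24 members differed in response between lineages by the F test of the interaction, beside 55.2% of all genes. SLC38A7 and SLC38A9 missed that test and were called in the comparison of the responses of lineages 22 and 35 (-0.33 and -0.60, adjusted p 0.044 and 0.0293, edgeR). DESeq2, RLE scaling, no filter or the replicate block each lost the SLC38A7 call. So did leaving out any compared library except lineage 35 co-culture replicate 1 (edgeR adjusted p up to 0.133). The SLC38A9 call was lost without co-culture replicate 3 or isolation replicate 2 or 3 of either lineage (up to 0.0779). Without lineage 35 the number of members that differed in response was 5. In the fit of all groups the responses of lineages 22 and 45 also differed for 5 members, beside 17.3% of all genes.

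The lineages stood closer to each other in co-culture than in isolation, for the members as for other genes. In co-culture 6 members differed between 22 and 35 (31.1% of all genes), 3 between 22 and 45 (25.2%) and 3 between 35 and 45 (12.7%). In isolation the same comparisons gave 17 (63.6%), 10 (38.4%) and 13 (51.8%). Summed over the 3 comparisons, 12 of 72 were called in co-culture and 40 of 72 in isolation by edgeR. A fit of lineages 22 and 45 in co-culture alone with replicate numbers as a block, chosen after seeing the data, gave 1 member higher and 3 lower. No share of all genes is given for that fit, so these counts cannot be set against other genes. The range of the 3 lineage means had a median of 0.31 (log2) in co-culture and 0.62 in isolation over the members, and of 0.33 and 0.59 over all genes. It was wider in isolation for 19 of 24 members (79.2%) and for 74.8% of all genes. These ranges and the summed counts include isolated lineage 35, whose libraries stood apart, and are not given without it. Only the comparison of 22 and 45 leaves lineage 35 out, with 10 members (38.4% of all genes) in isolation and 3 (25.2%) in co-culture.

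**Figure D3:**
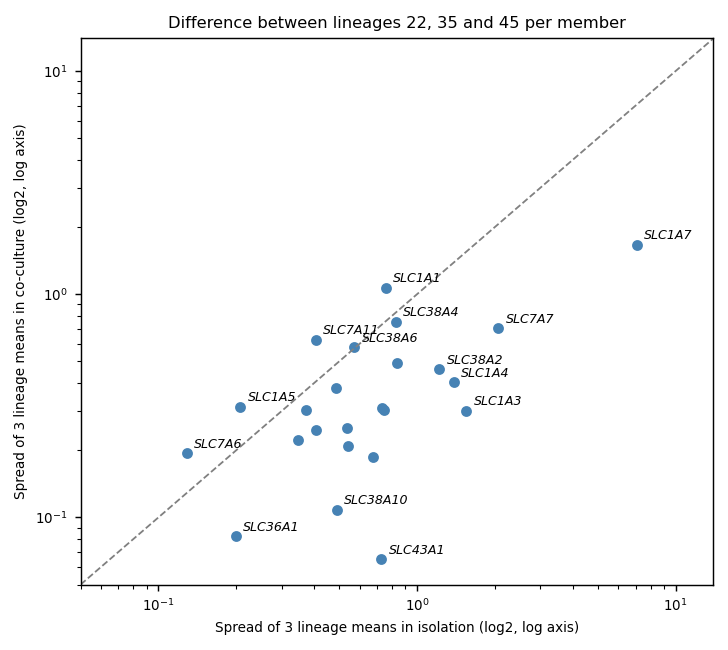
Range of the means of lineages 22, 35 and 45 (log2, log axes) for each of 24 members, co-culture on the vertical and isolation on the horizontal axis, with a dashed line of equality. Most points lie below the line, SLC1A3, SLC1A4 and SLC43A1 far below it, and the isolation value of SLC1A7 rests on 3 counts in lineage 35.

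Among the light chains in isolation, SLC7A5 was lower in lineage 22 than in 35 (log2 -0.70 ± 0.12, edgeR adjusted p 2.63e-05) and higher in 35 than in 45 (0.74 ± 0.12, 1.9e-05). SLC7A7 was higher in 22 than in 35 (2.06 ± 0.26, 1.01e-06) and lower in 35 than in 45 (-1.37 ± 0.27, 0.000237). The lineage range of SLC1A3 was 0.30 in co-culture and 1.55 in isolation, and that of SLC1A4 was 0.40 and 1.38. SLC43A1 ranged over 0.06 in co-culture and 0.73 in isolation, and SLC38A2 over 0.46 and 1.22. The exceptions, wider in co-culture, were SLC1A1 (1.07 and 0.76), SLC1A5 (0.31 and 0.21), SLC7A11 (0.63 and 0.41), SLC7A6 (0.19 and 0.13) and, by little, SLC38A6 (0.58 and 0.57). In co-culture, SLC38A1, SLC38A2 and SLC38A4 were each lower in lineage 22 than in 35, by -0.49, -0.46 and -0.48 (adjusted p 0.00472, 0.0389 and 0.0417, edgeR). The SLC38A2 call was lost without lineage 22 replicate 3 or any 1 of the lineage 35 libraries, and the SLC38A4 call without replicate 2 or 3 of either lineage (edgeR adjusted p up to 0.155 and 0.168). In isolation they were higher in 22 than in 35, by 0.67, 1.22 and 0.61. SLC1A7 had 442 counts in isolated lineage 22 and 3 in isolated lineage 35, a ratio of 141 with a 95% counting interval of 48.0 to 688. Isolated lineage 35 stayed below 1 CPM for SLC1A7 and SLC7A7. Its lower levels than the groups above that reached 1 CPM thus followed from the rule of description.

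The second table set each of lineages 03, 10 and 13 against the same 3 Pop libraries, so these comparisons share their controls. Members differed from Pop in each lineage: 9 rose and 5 fell of 25 in lineage 03 (23.2% and 25.5% of all 14638 genes), 6 rose and 7 fell in lineage 10 (18.8% and 23.5%), and 6 rose and 10 fell in lineage 13 (21.0% and 24.2%; edgeR, BH). Without Pop replicate 1 the numbers were 8 and 7, 6 and 7, and 6 and 11. The median log2 fold change over the members was 0.08, 0.05 and -0.04 in lineages 03, 10 and 13, and over all genes -0.03, -0.02 and -0.01. SLC1A4 was higher and SLC1A1 lower than Pop in all 3 lineages. The nuclear RNAs MALAT1 and NEAT1 summed to 1146 to 1637, 1269 to 1468 and 823 to 965 CPM in lineages 03, 10 and 13 and to 530 to 625 CPM in Pop, and their part in these results was not tested. Of the 8 early response genes, 1, 1 and 0 rose and 1, 2 and 3 fell.

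**Figure D4:**
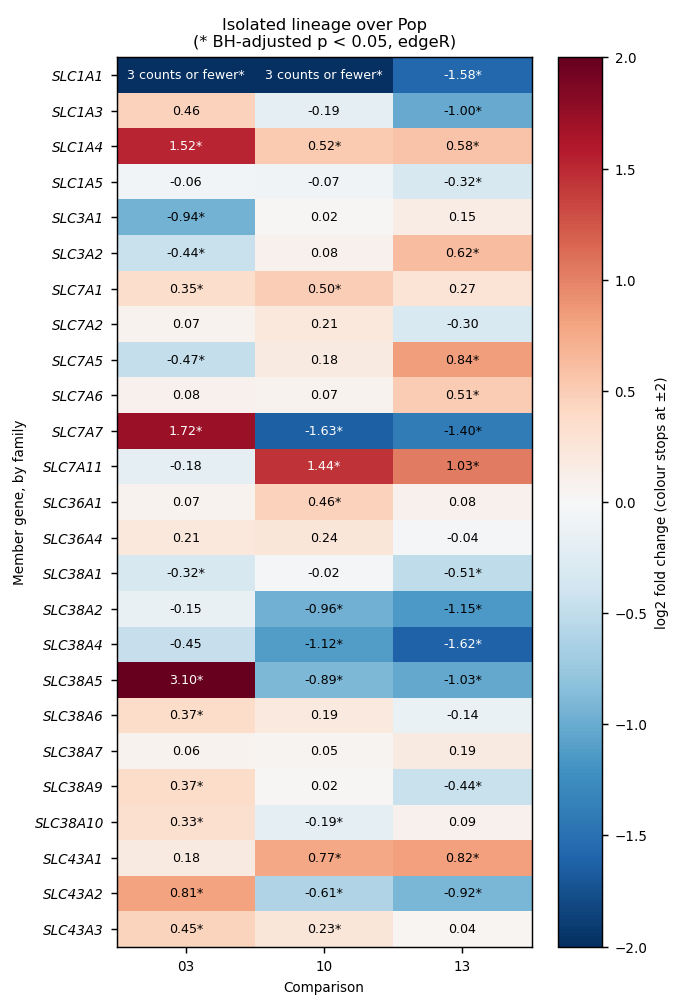
Log2 fold change of isolated lineages 03, 10 and 13 over Pop for the 25 members of the second table, with an asterisk where edgeR's BH-adjusted p was under 0.05. SLC38A5 and SLC7A7 are red in lineage 03 and blue in the other columns, SLC7A11 is red in lineages 10 and 13, and cells without a number rest on 3 counts or fewer in the lineage.

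The heavy chain and its light chains separated lineage 13 from lineage 03. SLC3A2 had 466, 423 and 411 CPM in lineage 13, 213, 191 and 220.5 CPM in lineage 03 and 313, 310.4 and 272 CPM in lineage 10, against 298, 282 and 267 CPM in Pop. Lineage 13 lay wholly above Pop and lineage 03 wholly below it, and lineage 10 overlapped it. SLC3A2 rose in lineage 13 (log2 0.62 ± 0.08, edgeR adjusted p 5.59e-05), fell in lineage 03 (-0.44 ± 0.08, 0.000799) and in lineage 10 did not pass the test (0.08, 0.469). SLC7A5, its leucine-carrying partner, had 1277, 1418 and 925 CPM in lineage 13, 537, 437 and 482 CPM in lineage 03 and 681, 816 and 788 CPM in lineage 10, against 536, 714 and 767 CPM in Pop. Lineage 13 lay wholly above Pop, 1 library of lineage 03 overlapped it, and so did lineage 10. SLC7A5 rose 1.79-fold in lineage 13 (0.84 ± 0.16, 0.000747) and fell in lineage 03 (-0.47 ± 0.16, 0.0253). The call in lineage 03 was lost without lineage 03 replicate 2 or 3 or Pop replicate 2 or 3 (adjusted p 0.0619 to 0.101, edgeR), and without Pop replicate 1 the change was -0.61. In lineage 13 the rise without Pop replicate 1 was smaller, 0.69 (adjusted p 0.00488, edgeR). Set against each other, lineage 03 was below lineage 13 by -1.06 ± 0.09 for SLC3A2 (3.09e-07) and by -1.31 ± 0.16 for SLC7A5 (1.43e-05).

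SLC7A6 had 152, 148 and 125 CPM in lineage 13, 112, 108 and 94.1 CPM in lineage 03 and 104, 103 and 105 CPM in lineage 10, against 81.4, 110.3 and 106 CPM in Pop. Only lineage 13 lay wholly above Pop. It rose there (log2 0.51 ± 0.11, edgeR adjusted p 0.00223; 0.37 without Pop replicate 1), and so did SLC7A6OS on the opposite strand (0.60, 0.000238). In lineages 03 and 10 the log2 fold changes of 0.08 and 0.07 did not pass the test. SLC7A11 had 439, 316 and 347 CPM in lineage 10, 377, 223 and 229 CPM in lineage 13 and 152, 108 and 96.9 CPM in lineage 03, against 109.9, 169.7 and 126 CPM in Pop. Every library of lineages 10 and 13 exceeded every Pop library, with replicate 1 the highest in each, and lineage 03 overlapped Pop. The rise was 2.72-fold in lineage 10 (1.44 ± 0.23, 0.000232) and 2.04-fold in lineage 13 (1.03 ± 0.23, 0.00232, edgeR). Without Pop replicate 1 these were 1.31 and 0.88 (edgeR adjusted p 0.0107 and 0.0474). In lineage 03 the change of -0.18 did not pass the test (0.527). SLC7A11-AS1, over 14081 bases of SLC7A11 on the opposite strand, rose in lineage 10 as well (1.32, 0.0124).

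SLC7A7 rose in lineage 03 and fell in lineages 10 and 13. It had 4.28, 4.61 and 5.07 CPM in lineage 03, 0.446, 0.540 and 0.372 CPM in lineage 10 and 0.756, 0.333 and 0.515 CPM in lineage 13, against 1.49, 1.41 and 1.34 CPM in Pop. All libraries of lineage 03 lay above Pop and all of lineages 10 and 13 below it. The change was 3.29-fold up in lineage 03 (log2 1.72 ± 0.20, edgeR adjusted p 1.32e-05), 3.10-fold down in lineage 10 (-1.63 ± 0.25, 0.000175) and 2.64-fold down in lineage 13 (-1.40 ± 0.24, 0.000388). Lineages 10 and 13 stayed below 1 CPM and Pop did not, so both falls followed from the rule of description. SLC3A1, the heavy chain known from kidney and gut, averaged 0.549 ± 0.0705 CPM in lineage 03 and 1.06 ± 0.0652 CPM in Pop (SD, n = 3 each) and fell there (-0.94 ± 0.25, edgeR adjusted p 0.00738). That fall also followed from the rule, since Pop reached 1 CPM and lineage 03 did not. PREPL lies over 5214 bases of SLC3A1 on the opposite strand and also fell in lineage 03 (-0.37, 0.00352, edgeR), and AC013717.1 lies over 44853 bases of it on the same strand, so its reads may not be separated from theirs. SLC7A1 rose in lineages 03 and 10 (0.35 and 0.50, adjusted p 0.0175 and 0.00257), and the call in lineage 03 was lost without lineage 03 replicate 1 or 2.

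**Figure D5:**
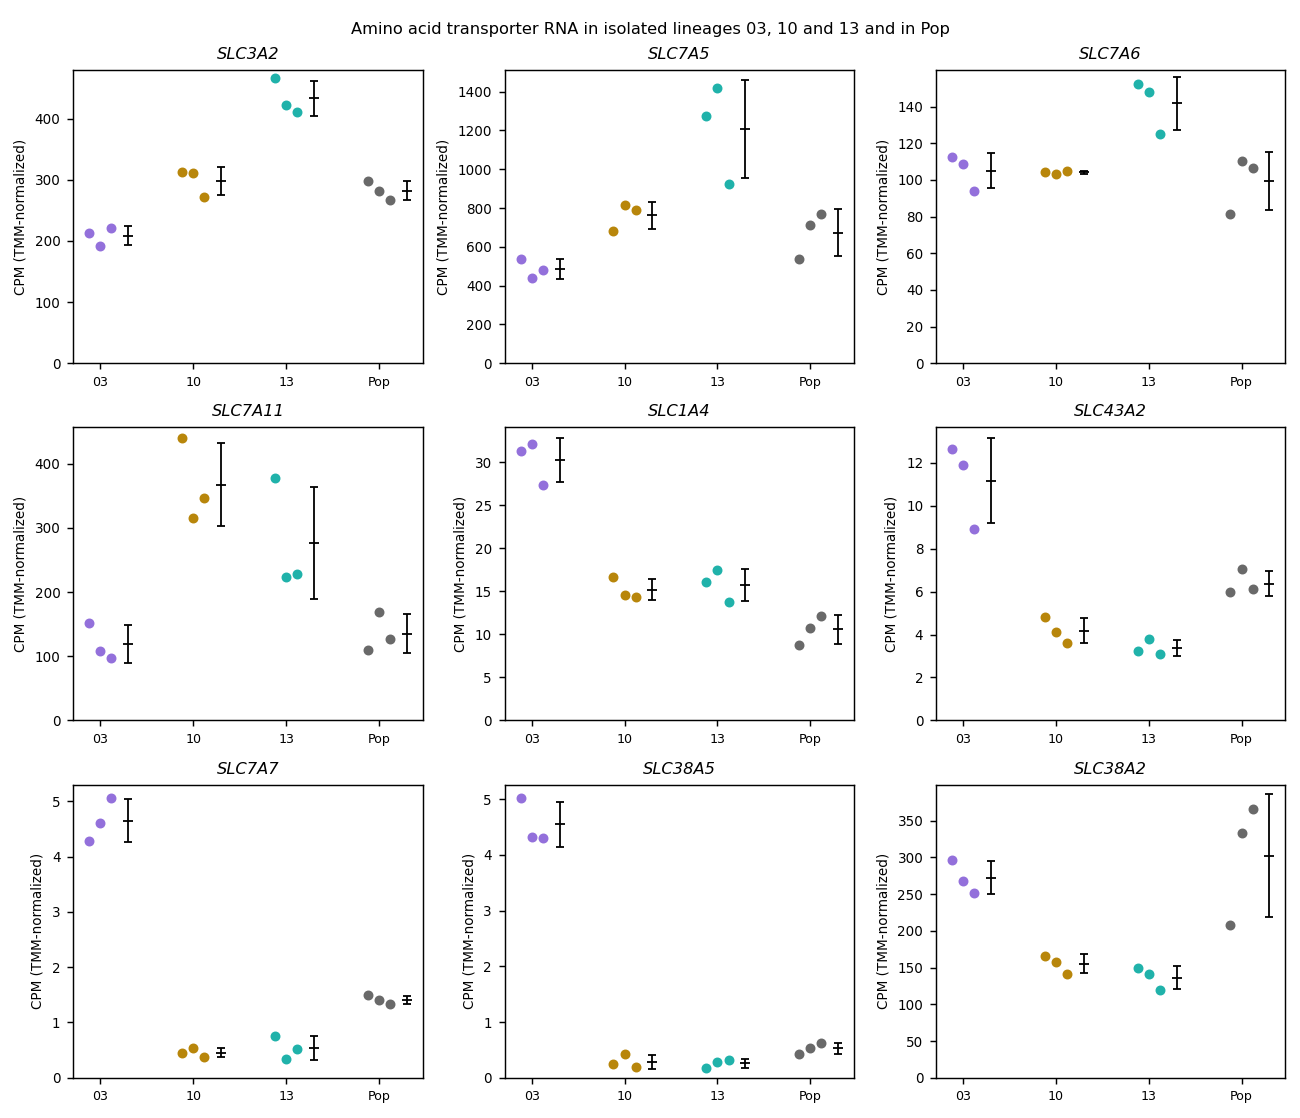
CPM per library of 9 members in isolated lineages 03, 10 and 13 and in Pop (rightmost); points are libraries, and black marks give the mean ± SD of 3. SLC3A2 and SLC7A5 are highest in lineage 13 and lowest in lineage 03, SLC38A5 and SLC7A7 are highest in lineage 03, and SLC7A11 is highest in lineage 10.

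Among the neutral amino acid transporters, SLC1A4 had 31.4, 32.2 and 27.4 CPM in lineage 03, 16.6, 14.6 and 14.4 CPM in lineage 10 and 16.1, 17.5 and 13.8 CPM in lineage 13, against 8.79, 10.8 and 12.2 CPM in Pop. Every lineage library exceeded every Pop library, most of all in lineage 03. The rise was 2.86-fold in lineage 03 (log2 1.52 ± 0.13, edgeR adjusted p 5.96e-07), and smaller in lineages 10 (0.52 ± 0.13, 0.00513) and 13 (0.58 ± 0.13, 0.00232). Without Pop replicate 1 the values in lineages 10 and 13 were 0.40 and 0.44. SLC1A5 fell in lineage 13 (-0.32 ± 0.07, 0.00252) and did not pass the test in lineages 03 (-0.06) and 10 (-0.07). SLC43A2 had 8.92 to 12.7 CPM in lineage 03, 3.62 to 4.82 CPM in lineage 10 and 3.09 to 3.78 CPM in lineage 13, against 5.96 to 7.03 CPM in Pop. It rose in lineage 03 (0.81 ± 0.15, 0.000567) and fell in lineages 10 (-0.61 ± 0.16, 0.00673) and 13 (-0.92 ± 0.16, 0.000368). SLC43A1 rose in lineages 10 (0.77 ± 0.12, 0.00018) and 13 (0.82 ± 0.12, 9.59e-05, edgeR) and did not pass the test in lineage 03 (0.18).

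The glutamate transporter SLC1A1 had 0, 0.0296 and 0.0607 CPM in lineage 03, 0 in each library of lineage 10 and 0.610, 0.834 and 0.544 CPM in lineage 13, against 1.49, 1.93 and 2.53 CPM in Pop. These are 3 counts in lineage 03 and 0 in lineage 10, against 200 in Pop. SLC1A1 was thus lower than Pop by a ratio of 62.2 in lineage 03 (95% counting interval 21.0 to 304) and at least 65.7-fold lower in lineage 10, with a floor of 3 counts over the group. In lineage 13 it fell 2.98-fold (log2 -1.58 ± 0.29, edgeR adjusted p 0.00105). These intervals and floors cover counting error only. In this table SLC1A1 reached 1 CPM in Pop only, so a lower level in the lineages followed from the rule of description. SLC1A3 had 3.23, 4.86 and 3.72 CPM in lineage 13, 13.6, 9.73 and 9.53 CPM in lineage 03 and 5.06, 8.59 and 7.12 CPM in lineage 10, against 8.00, 7.88 and 7.85 CPM in Pop. It fell 2.01-fold in lineage 13, without overlap (adjusted p 0.00123, edgeR), and did not pass the test in the other two, of which lineage 10 overlapped Pop.

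SLC38A5, a transporter of glutamine, asparagine and histidine that exchanges protons, had the largest called rise against Pop. It reached 1 CPM in lineage 03 only, so a rise there followed from the rule of description, and its rank and p add no support. It had 5.02, 4.32 and 4.31 CPM in lineage 03, 0.238, 0.420 and 0.186 CPM in lineage 10 and 0.174, 0.278 and 0.315 CPM in lineage 13, against 0.426, 0.527 and 0.625 CPM in Pop. Lineage 03 stood far above all other libraries, 8.58-fold above Pop (log2 3.10 ± 0.24, edgeR adjusted p 2.54e-07), and lineages 10 and 13 were below Pop (-0.89 ± 0.32, 0.0361, and -1.03 ± 0.32, 0.0175). The falls of SLC38A5 rest on small counts. The call in lineage 10 was lost without lineage 10 replicate 1 or 3 or Pop replicate 2 or 3 (adjusted p 0.0724 to 0.135), and that in lineage 13 without lineage 13 replicate 1 (0.0709) or Pop replicate 3 (0.0594, edgeR).

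The system A genes SLC38A2 and SLC38A4 were lower in lineages 10 and 13, whereas SLC38A1 did not pass the test in lineage 10 (log2 -0.02, edgeR adjusted p 0.903). SLC38A2 had 149, 141 and 119 CPM in lineage 13, 166, 158 and 141 CPM in lineage 10 and 297, 268 and 252 CPM in lineage 03, against 207, 333 and 366 CPM in Pop. Lineages 13 and 10 lay below every Pop library, of which replicate 1 was the low one, and lineage 03 overlapped Pop. It fell 2.21-fold in lineage 13 (log2 -1.15 ± 0.17, edgeR adjusted p 9.31e-05) and by -0.96 ± 0.17 in lineage 10 (0.000421), and without Pop replicate 1 the changes were -1.38 and -1.17. In lineage 03 it did not pass the test (-0.15, 0.469), and without Pop replicate 1 it was called lower (-0.36, 0.00834). SLC38A4 had 2.59, 3.50 and 2.86 CPM in lineage 13, 3.72, 4.32 and 4.71 CPM in lineage 10 and 5.13, 6.03 and 8.92 CPM in lineage 03, against 7.94, 9.20 and 10.5 CPM in Pop. Only lineage 03 overlapped Pop. SLC38A4 fell 3.08-fold in lineage 13 (-1.62 ± 0.20, 2.15e-05), and in lineage 10 it fell 2.17-fold (-1.12 ± 0.19, 0.000442). In lineage 03 it did not pass the test (-0.45, 0.06), and without Pop replicate 1 it did (-0.55, 0.0309, edgeR).

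Smaller changes concerned SLC38A1, which fell in lineage 13 (log2 -0.51, edgeR adjusted p 0.00376) and in lineage 03 (-0.32, 0.041). The call in lineage 03 was lost without lineage 03 replicate 2 or 3 or Pop replicate 2 or 3. RLE scaling, the replicate block and a fit of the compared groups alone also lost it (edgeR adjusted p 0.0544, 0.0574 and 0.0981). So did leaving out any lineage 10 library or lineage 13 replicate 1, which lie outside the comparison. SLC38A9 rose in lineage 03 (0.37, 0.0139) and fell in lineage 13 (-0.44, 0.00649). SLC38A6 rose in lineage 03 (0.37, 0.0276), a call lost without lineage 03 replicate 1 or 3 or Pop replicate 1 or 2 (edgeR adjusted p up to 0.0849). SLC36A1 rose in lineage 10, with 39.4 to 40.0 CPM against 24.7 to 32.3 CPM in Pop (0.46, 0.00111). SLC43A3 rose in lineages 03 and 10 (0.45 and 0.23), and SLC38A10 rose in lineage 03 (0.33) and fell in lineage 10 (-0.19). In lineage 10 the SLC43A3 call was lost without lineage 10 replicate 1 or 3 (edgeR adjusted p up to 0.0798), and the SLC38A10 call without lineage 10 replicate 1 or 2 or Pop replicate 3 (up to 0.103). SLC38A7, SLC36A4 and SLC7A2 were called in none of the 3 lineages. Without Pop replicate 1, SLC7A2 was called lower in lineage 13 (-0.45). Between the lineages themselves, 16 members differed between 03 and 10 (51.4% of all genes), 20 between 03 and 13 (53.2%) and 11 between 10 and 13 (34.6%). SLC7A7 and SLC38A5 were higher in 03 than in 13 by 3.12 ± 0.23 and 4.13 ± 0.26 (1.17e-07 and 3.27e-08, edgeR). For SLC38A5, which reached 1 CPM in lineage 03 only, and for SLC7A7, which did not reach it in lineage 13, this followed from the rule of description.

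Genes around these transporters were counted from lists. Of 28 ATF4 targets of the amino acid response other than the members, 10 rose and 6 fell in lineage 22 co-culture, 24 rose and 2 fell in lineage 35, and 14 rose and 1 fell in lineage 45 (edgeR, BH). Lineage 22 had 27.0% of all genes higher and 30.0% lower, lineage 35 had 32.7% and 32.9%, and lineage 45 had 18.6% and 23.2%, shares that stand beside the counts of the other lists as well. Their median log2 fold change was 0.11, 0.62 and 0.29, beside -0.04, 0.01 and -0.03 over all genes. TRIB3, an ATF4-induced pseudokinase, had 65.0, 73.4 and 57.6 CPM on average in co-culture of lineages 22, 35 and 45 and 40.1, 28.1 and 26.0 CPM in isolation. PHGDH, the first enzyme of serine synthesis, averaged 24.6 ± 5.47 CPM in lineage 35 co-culture and 0.203 ± 0.115 CPM in isolation (SD, n = 3 each). Of 9 transcription factors of transporter genes, 2, 4 and 5 rose and 3, 4 and 1 fell in co-culture of lineages 22, 35 and 45, and 4, 3 and 3 rose and 2, 3 and 4 fell against Pop in lineages 03, 10 and 13. MYC rose in each co-culture (0.33, 0.74 and 0.48). ATF4 averaged 408, 451 and 410.0 CPM in co-culture and 305, 262 and 323 CPM in isolation. Against Pop, 7 ATF4 targets rose and 5 fell in lineage 03, 3 rose and 8 fell in lineage 10, and 1 rose and 15 fell in lineage 13 (median 0.09, 0.01 and -0.39). For these and the other lists against Pop, lineage 03 had 23.2% of all genes higher and 25.5% lower, lineage 10 had 18.8% and 23.5%, and lineage 13 had 21.0% and 24.2%.

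Of 17 listed amino acid transporters outside the 6 families, 13 were tested in the first table, and 3 rose and 3 fell in lineage 22, 2 rose and 5 fell in lineage 35 and 2 rose and 5 fell in lineage 45. SLC15A3, a lysosomal transporter of histidine and peptides, fell in each, with 5.14, 2.86 and 2.96 CPM on average in co-culture of lineages 22, 35 and 45 and 14.7, 5.77 and 6.67 CPM in isolation (log2 -1.52, -1.01 and -1.17). CTNS, the lysosomal cystine exporter, rose in each (1.08, 0.29 and 0.31). Against Pop 14 were tested, of which lineage 03 had 5 rising and 3 falling, lineage 10 had 5 and 5, and lineage 13 had 5 and 4. SLC6A6, the taurine transporter, averaged 219.7, 199 and 214 CPM in lineages 03, 10 and 13 and 125 CPM in Pop, and rose in each (0.81, 0.67 and 0.77). Of 10 genes of glutathione and cystine use, 4, 4 and 5 rose and 2, 4 and 2 fell in co-culture of lineages 22, 35 and 45, and 2, 3 and 2 rose and 1, 2 and 1 fell against Pop in lineages 03, 10 and 13. Of 23 tested genes of amino acid sensing by mTORC1, 5, 7 and 3 rose and 9, 6 and 4 fell in co-culture, and 4, 5 and 3 rose and 4, 5 and 2 fell against Pop.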

How the data were processed

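Stranded mRNA libraries made from 500 ng of RNA were sequenced as paired 75-base reads, per the labels' protocols. The submitters' processing notes list STAR 2.6.1d, Salmon 1.4.0 and the GRCh38 build. Deposited values are estimated counts per gene, length-scaled as the deposited tables are named, and not normalized for depth, in 2 tables made separately, so comparisons stay within a table. Whether the counting used strand, and the annotation, are not given in the sources used here. Opposite-strand genes also lie over SLC38A4 (AC008014.1, 67648 bases), SLC38A9 (DDX4, 35178 bases) and SLC1A1 (SPATA6L, 34084 bases), among others. Reads of these may not be separated either.

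Estimated counts were rounded and fitted in edgeR 4.0.16 (R 4.3.3, limma 3.58.1) over all groups of a table, with TMM normalization, the filterByExpr filter, a robust quasi-likelihood test and BH adjustment over all genes kept (14570 in the first table, 14638 in the second), with calls at 0.05. CPM values are TMM-normalized and carry no gene length, so levels are not compared between genes. Biological variation came to a coefficient of 10.4% for both tables. Where a group had 3 counts or fewer, summed counts are compared, with a 95% interval. The labels do not say that replicates came from separate cultures, so p-values measure the spread between these libraries. Genes with values per library were those called and changed at least 2-fold, those called alike in all 3 lineages, and SLC3A2 with its light chains; SLC43A1, SLC43A3 and the other members are given by means, ranges or counts. Of each other list, up to 4 genes with the smallest p per comparison could be named; TRIB3, ATF4, MYC and SLC6A6 were carried across lineages after their values were seen. Members, gene lists (12, with 126 symbols) and tests were chosen with earlier results of these data known.

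Replicate numbers deviated together only between lineages 22 and 45 in co-culture (r of 0.36, 0.25 and 0.17 over genes for replicates 1, 2 and 3), which the labels do not state. Alternatives were RLE scaling, DESeq2 1.42.0, no filter, a filter at 5 CPM in 3 libraries, a replicate block, a fit of the compared groups alone, each replicate left out, and lineage 35 left out; the block fit of lineages 22 and 45 in co-culture alone was chosen after seeing the data. Gene spans are from GENCODE on GRCh38, and promoter sequences from RefSeq GRCh38.p14.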

Additional observations from a re-analysis of the deposited data

Results flagged for a closer look

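The responses of 14 of the 24 members to co-culture differed between lineages by edgeR's F test of the interaction, beside 55.2% of all genes. This is a similar share, so the number is not particular to the members. For each the pair of lineages with the largest difference in response is given (first-named lineage minus second, log2). Between lineages 22 and 35 the difference was -1.68 for SLC38A2, -1.34 for SLC7A7, -1.23 for SLC1A1, -1.16 for SLC38A1, -1.07 for SLC38A6 and -0.74 for SLC7A2, and it was positive at 0.60 for SLC7A5 and 0.54 for SLC43A3. The fitted difference of SLC1A7 between the same lineages, -6.32, rests on 3 counts in isolated lineage 35. Between lineages 35 and 45 it was 1.58 for SLC38A4, -1.42 for SLC1A3 and -0.98 for SLC1A4. Between lineages 22 and 45, which do not involve the lineage 35 libraries, it was 0.69 for SLC43A1 and 0.43 for SLC38A10.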

How the results depend on the processing

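None of 4528 alternative values of the 211 member calls changed sign, and 265 lost the threshold, 220 of them among 3258 values with a library left out. Many of the 3258 left out a library outside the comparison, and these test a call only weakly. With each compared library left out in turn, the calls kept throughout ran from 19 of 20 (03 against 13) to 1 of 3 (35 against 45 in co-culture). For co-culture against isolation they were 10 of 16, 10 of 13 and 7 of 10 in lineages 22, 35 and 45. With the replicate block 206 of the 211 calls were kept, and the members lower in lineage 10 than Pop numbered 6 rather than 7; in lineages 22 and 45 in co-culture, where numbers deviated together, the count lower was 2 with the block over all groups and 3 with only these groups fitted. Without lineage 35, 5 members fell in all remaining lineages (1 with it), and 5 differed in response (14 with it), and the fit then has fewer samples. In the fit of all groups, 16.4% of all genes fell in both lineages 22 and 45, and 17.3% differed in response between them. Members higher in 22 than 35 in co-culture were 2, and 1 with no filter, a stricter filter, DESeq2 or only the groups compared. Members lower in 22 than 45 in co-culture were 2, and 1 with the stricter filter and 0 with only the groups compared, and those higher were 1, and 2 by DESeq2. The stricter filter, which tests fewer genes, left 1 of 3 members higher in 35 than 45 in co-culture, 3 of 5 lower in 03 than Pop and 4 of 7 lower in 10 than Pop. Apart from that filter the cause was not tested.

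With 1 replicate left out, counts ranged from 3 to 5 for differing responses of 22 and 45, 7 to 11 for falls in lineage 22 co-culture, 1 to 2 for falls in all lineages and 3 to 7 for falls in 03 against Pop. They ranged from 6 to 10 higher in 03 than 10, 5 to 10 higher in 10 than 13 and 2 to 7 higher in 22 than 45 in isolation. In co-culture they ranged from 0 to 3 higher and 2 to 6 lower in 22 than 35, 1 to 2 higher and 1 to 3 lower in 22 than 45, and 1 to 4 higher in 35 than 45. Limits are the 3 libraries per group, isolated lineage 35 libraries that differ from every other group of their table, and co-culture tied to sorting, kit and time in culture.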
